A study of Mus musculus with 64 samples.

Results

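Replication-type histone genes are the clustered genes that supply the histone proteins H1, H2A, H2B, H3 and H4 when a cell copies its DNA. They were taken here as every row whose symbol starts with Hist and a cluster number from 1 to 4. This gave 67 genes, out of 15697 genes in the prefrontal cortex table, 15573 in the hippocampus, 16155 in the hypothalamus and 8830 in blood. Each brain table listed 67 of them and the blood table listed 66, without the pseudogene Hist3h2bb-ps. By family there were 5 H1, 18 H2A, 19 H2B, 12 H3 and 13 H4 genes. Of the 67, 53 belong to the Hist1 cluster on chromosome 13, 10 to Hist2 on chromosome 3, 3 to Hist3 on chromosome 11 and 1 to Hist4 on chromosome 6 (GRCm38).

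The study measured RNA in male BALB/c mice, an inbred strain, aged 28 weeks. One group was exposed for 9 weeks to UCMS, unpredictable chronic mild stress, a changing series of mild stressors used in rodents as a depression model, and the control group was not stressed. Animals were killed 14 to 16 hours after the final stressor. Prefrontal cortex, hippocampus and hypothalamus had 8 control and 8 UCMS libraries each, and whole blood had 7 control and 9, which gave 64 libraries from 17 animals. No group carried a transgene or a drug treatment.

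A cell makes most of its histone protein in S phase, when new DNA has to be packed into nucleosomes. The mRNAs of these genes are unusual in that most of them end in a short stem-loop instead of a poly(A) tail, and the protein Slbp holds that stem-loop through processing, translation and decay. In cells that have stopped dividing the core histones are replaced mainly by replacement variants such as H3f3a, H3f3b and H2afz, whose mRNAs are polyadenylated, and some cluster genes also make polyadenylated mRNA there. The libraries of this study were made from total RNA after removal of ribosomal RNA, so RNA without a poly(A) tail was kept.

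The stem-loop was read from the annotated transcripts of GRCm38, and 43 of the 67 genes had one. For the other 24 no annotated transcript held one of the letter patterns searched, which says only that these letters are not in the annotated sequence. The commonest form, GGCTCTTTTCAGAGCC, was in 26 genes, and 7 H4 genes had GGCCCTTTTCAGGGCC. The form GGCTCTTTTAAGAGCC was in 5 H2B or H3 genes. Genes also differed in how far the annotated transcript runs on after the stem-loop: 21 had 100 bases or more after it and 22 had fewer. The sites below belong to the genes on which the blood results turn, with the stem and loop in capitals, 5′ to 3′ along the gene.

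Hist1h1c (linker histone, chr13:23739505-23739534, plus strand, 840 bases follow): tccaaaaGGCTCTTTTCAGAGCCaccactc
Hist1h2be (H2B, chr13:23585524-23585553, minus strand, 1861 bases follow): aaccaaaGGCTCTTTTCAGAGCCacccaac
Hist1h3e (H3, chr13:23561896-23561925, minus strand, 369 bases follow): ccaaaacGGCTCTTTTAAGAGCCacctcca
Hist1h4i (H4, chr13:22040959-22040988, minus strand, 330 bases follow): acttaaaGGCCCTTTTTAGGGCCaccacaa
Hist1h4m (H4, chr13:21812122-21812147, plus strand, 3 bases follow): aactaaaGGCCCTTTTCAGGGCCatc
Hist3h2ba (H2B, chr11:58949342-58949371, plus strand, 169 bases follow): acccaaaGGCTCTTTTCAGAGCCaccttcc

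The 6 sites keep the same loop start and differ in the stem and at the end of the loop. Of the 6 transcripts, that of Hist1h4m ends almost at the stem-loop, as textbook replication-dependent mRNAs do, while that of Hist1h2be runs on furthest.

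Promoters were compared because the genes moved together across animals, as described further on. RefSeq promoter windows of 300 bases (250 before to 50 after the gene start, GRCm38.p6) were found for 60 of the 67 genes, and motifs were counted on both strands. The CCAAT box, searched by those letters, was in 85% of the 60 windows and in 41.1% of the windows of 27025 genes. It was in 5 of 5 H1, 17 of 17 H2A, 16 of 16 H2B and 10 of 10 H3 windows, but in 3 of 12 H4 windows, those of Hist1h4a, Hist1h4c and Hist1h4d. A TATA box, searched as TATAAA, was in 56.7% against 15.7% of all windows. The octamer ATTTGCAT was in 21.7% against 1.97%, in 6 H2A and 7 H2B genes, and AAACACA, a motif known from H1 promoters, was in 11.7% against 8.22%, including 4 of 5 H1 genes. AAACACA can share its first letters with the end of a TATA box, and a match is a description of the letters only.

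The 250 bases before the start of 4 genes follow. These genes show the promoter classes and differ in how their blood levels went with Mki67, a gene of cycling cells. Capitals mark the 3 motifs named in full above other than the octamer, or their reverse complement where the match is on the other strand: CCAAT reads as ATTGG there, and the TATA box as TTTATA.

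Hist1h1b (chr13:21780626-21780875, minus strand): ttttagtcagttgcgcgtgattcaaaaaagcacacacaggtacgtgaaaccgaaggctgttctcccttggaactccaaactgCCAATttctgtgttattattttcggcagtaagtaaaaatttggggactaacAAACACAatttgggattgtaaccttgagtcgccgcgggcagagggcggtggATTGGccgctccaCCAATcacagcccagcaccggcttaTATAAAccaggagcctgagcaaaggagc
Hist1h1c (chr13:23738557-23738806, plus strand): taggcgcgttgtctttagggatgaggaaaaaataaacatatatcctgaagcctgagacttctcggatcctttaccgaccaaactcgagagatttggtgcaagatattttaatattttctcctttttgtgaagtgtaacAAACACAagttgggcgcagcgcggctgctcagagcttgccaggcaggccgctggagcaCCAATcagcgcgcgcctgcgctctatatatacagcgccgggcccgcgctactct
Hist1h4i (chr13:22041363-22041612, minus strand): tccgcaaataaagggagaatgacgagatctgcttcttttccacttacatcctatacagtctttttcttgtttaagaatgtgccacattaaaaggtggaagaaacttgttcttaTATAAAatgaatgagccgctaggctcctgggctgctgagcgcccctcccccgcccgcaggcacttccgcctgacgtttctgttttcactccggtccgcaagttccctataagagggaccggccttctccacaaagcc
Hist3h2ba (chr11:58948661-58948910, plus strand): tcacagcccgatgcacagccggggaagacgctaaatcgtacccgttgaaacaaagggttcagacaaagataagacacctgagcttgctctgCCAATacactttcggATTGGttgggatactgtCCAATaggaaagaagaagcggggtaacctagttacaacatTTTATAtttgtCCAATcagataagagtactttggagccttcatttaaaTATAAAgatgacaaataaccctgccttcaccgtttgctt

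Hist3h2ba has the most CCAAT letters of the 4 and Hist1h4i has none. Any relation of these letters to the blood levels was not tested. Both linker histone genes carry AAACACA upstream of the CCAAT letters nearest the start.

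All levels below are the deposited log2 values, so a difference of 1 is a doubling. Within each table the libraries had been put on nearly the same distribution, so a level is relative to the other genes of that library and the sequencing depth behind it is unknown. Levels of different tissues come from separately made tables and are set side by side without a test. Many of these genes are near copies of each other: 62 of the 67 shared at least one stretch of 50 bases with another, the median gene shared 49.3% of its stretches, and 31 shared 50% or more. H1 genes shared least (median 2.21%) and H2A genes most (73.2%). How reads that match several genes were assigned is not given in the sources used here, so single H2A, H2B, H3 and H4 genes are uncertain where copies exist. Hist1h2be, annotated from 23583670 to 23621124 on chromosome 13, also overlaps Hist1h1e on the same strand.

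The tissue labels fitted the marker genes: the neuronal gene Snap25 had median levels of 9.71, 9.45 and 9.04 in prefrontal cortex, hippocampus and hypothalamus and 2.91 in blood, and the red cell gene Alas2 reached 11.4 to 12.3 in blood. In 9 brain libraries from 4 animals the haemoglobin gene Hbb-bs was at 14.0 or above, against at most 9.63 in the other brain libraries, and the comparisons in the brain regions are given with and without them. In blood, control replicates 3 and 7 stood at the 2 ends of the histone levels.

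Replication-type histone RNA was present in all 4 tissues, adult brain included. Over the genes of each library, the median level ranged from 5.83 to 6.92 in prefrontal cortex, and from 6.03 to 6.54 in hippocampus. It ranged from 5.89 to 6.56 in hypothalamus, and from 5.36 to 6.98 in whole blood. Blood therefore had the widest range between libraries, and both its lowest and its highest library were controls, replicate 7 and replicate 3. The plot of library medians shows this.

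**Figure D1:**
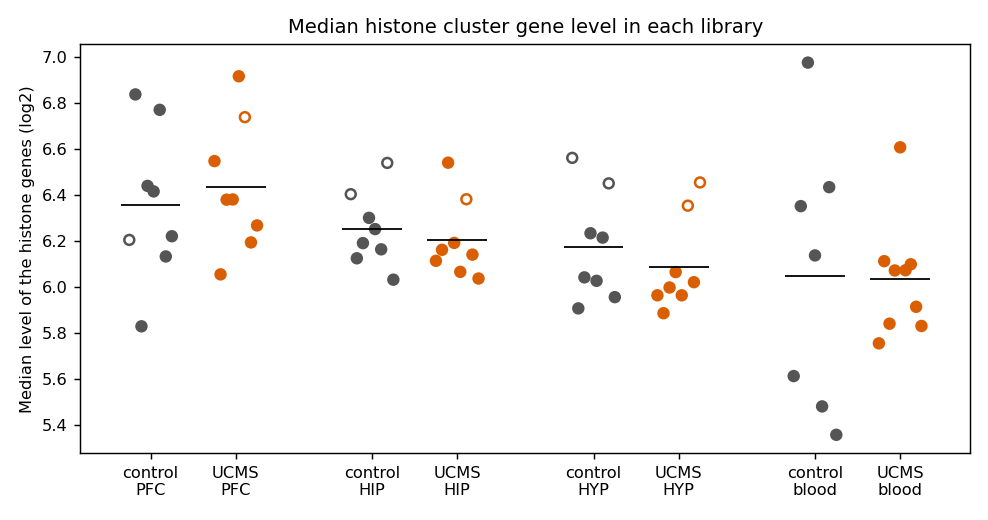
Median log2 level of the replication-type histone genes in each library (vertical axis) by tissue and group (horizontal axis), 1 point a library; lines are group means and open points are brain libraries with Hbb-bs above 12. In blood the 7 controls run from 5.36 to 6.98 and the 9 UCMS libraries lie between them, from 5.76 to 6.61.

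Some members had their own tissue pattern. Hist1h1c, a linker histone, which binds the DNA between nucleosomes, was at 7.73, 7.96 and 8.58 (lowest, median and highest library) in prefrontal cortex and at 7.68, 7.86 and 8.67 in hippocampus. It was at 7.68, 7.98 and 9.09 in hypothalamus and at 9.47, 10.13 and 10.73 in blood. Every blood library was thus above every brain library. The H2A gene Hist3h2a had the reverse pattern. Blood was at 4.53, 4.93 and 5.86, against 8.19, 8.45 and 8.56 in prefrontal cortex, 8.41, 8.52 and 8.61 in hippocampus, and 8.36, 8.51 and 8.72 in the hypothalamus. Hist3h2ba, the H2B gene of the same cluster, had medians of 7.27, 7.10 and 7.38 in the 3 brain regions and 3.77 in blood. Hist2h2be, an H2B gene, had medians of 5.62, 6.02 and 6.02 in the brain regions and 3.64 in blood. For these 3 genes too the brain and blood ranges did not overlap. The linker histone Hist1h1b behaved otherwise, with ranges that overlapped between all 4 tissues: its medians were 5.13, 4.29, 4.07 and 5.32, in the same order. Between the 3 brain regions the ranges of all 5 genes overlapped.

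The members rose and fell together from animal to animal. After the control and UCMS means were taken out, Pearson's r was computed for each pair of members over the libraries of a tissue, as a description without a p, since members share libraries and sequence. The median r of 2145 pairs was 0.70 in prefrontal cortex, 0.58 in hypothalamus and 0.54 in hippocampus, and that of 2080 pairs in blood was 0.62. All pairs of tested genes had medians of 0.003, 0.034 and 0.012 in the same brain regions and -0.006 in blood. Pairs without shared sequence moved together too: the 1779 brain pairs that share no stretch of 50 bases had medians of 0.68, 0.55 and 0.50, and the 1717 such blood pairs 0.59. Pairs that do share one had 0.81, 0.75, 0.72 and 0.74. Without the libraries rich in Hbb-bs the median over all pairs was 0.73 in prefrontal cortex, 0.42 in hypothalamus and 0.60 in hippocampus. In blood it was 0.49 without control replicate 3.

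Not every member joined. Hist2h2be had a mean r with the other members of 0.09 in prefrontal cortex, -0.34 in hypothalamus, -0.39 in hippocampus and 0.15 in blood, the lowest of all members in each tissue. Hist3h2a had -0.22 in hypothalamus, and Hist3h2ba had 0.18 and Hist1h1c 0.29 in blood. Some pairs cannot be told apart in these tables: Hist1h2bq and Hist1h2br had r of 0.998 in blood, and their levels never differed by more than 0.055 there. Among other gene groups, the replacement histones had a median r with the members of 0.41, 0.36, 0.20 and 0.14, for prefrontal cortex, hippocampus, hypothalamus and blood. H1f0, the linker histone of resting cells, went the other way in the brain, with a median r of -0.66, -0.48 and -0.69. The genes for replication and S phase had medians of 0.14, -0.08, -0.15 and 0.07, and those for histone mRNA processing -0.06, -0.16, -0.07 and 0.00. RNAs known to lack a poly(A) tail, a list of small structural RNAs, had 0.11, 0.22, 0.35 and 0.25. Some marker lists of cell types also moved with or against the members in the brain regions. In prefrontal cortex the median r was -0.50 for 6 neuronal genes, -0.41 for 4 genes of cortical neurons and 0.44 for 7 genes of oligodendrocyte precursors. Of the neuronal genes there, Syt1 was at -0.70 and Tubb3 went the other way, at 0.29. In hippocampus it was 0.46 for 3 platelet genes. In hypothalamus it was 0.66 for 3 platelet genes, 0.57 for 3 genes of cortical neurons, 0.52 for 4 T cell genes and -0.33 for the oligodendrocyte precursor genes, all with the libraries rich in Hbb-bs included. In blood the lists of blood cell types had medians from -0.21 (mature neutrophils) to 0.10 (platelets). The part of these cells in the shared movement of the histone genes was not tested.

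In blood the histone genes were set against Mki67 over the animals. Mki67 is made in cycling cells, and few cells in the circulation divide. Its level in the 7 controls was 3.67, 4.21 and 4.75 (lowest, median and highest) and in the 9 UCMS animals 4.15, 4.76 and 5.44, so the groups overlapped. A slope is the change in a gene's log2 level per unit of Mki67's log2 level over the 16 animals, from limma, with Benjamini-Hochberg adjustment over 7946 genes and a threshold of 0.05. Genes of division itself followed Mki67: of the mitosis and G2 list 14 of 17 rose with it (median slope 0.67), and of the replication and S phase list 9 of 15 (median 0.58, all 15 slopes positive). Top2a, the topoisomerase of dividing cells, had a slope of 0.78 ± 0.12 (SE, n = 16 animals, limma adjusted p = 0.000847).

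Over the 16 animals the replication-type histone genes as a group showed no common direction against Mki67, and their direction changed with single controls left out. Of the 65 tested, 1 rose and 5 fell with it, where 16.3% of all genes passed the test, 12% upward and 4.33% downward. Their slopes were split, 30 positive and 35 negative, with a median of -0.02 against -0.05 over all genes. Without control replicate 3, 4 passed, of which 3 rose (13.2% of all genes passed), and 46 of 65 slopes were positive (median 0.25). Without control replicate 7, 10 passed and all 10 fell (14.9% of all genes passed), and 7 of 65 slopes were positive (median -0.17). In whole blood, fewer cells of a type and less RNA per cell cannot be told apart.

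**Figure D2:**
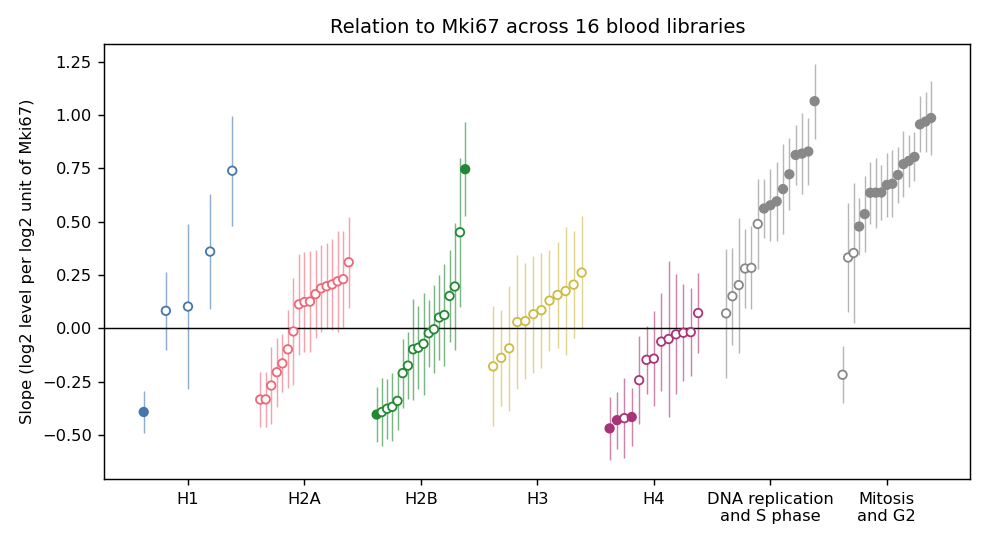
Slope of each gene's log2 level on the log2 level of Mki67 over 16 blood samples, with SE bars, for the 5 histone families and for the replication and S phase list and the mitosis and G2 list; filled points have a limma adjusted p under 0.05. The S phase slopes are all above 0 (median 0.58), while the histone slopes lie on both sides of 0 (median -0.02).

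The 5 that fell were a linker histone, an H2B and 3 H4 genes. Hist1h1c was at 10.10, 10.26 and 10.73 in controls and 9.47, 9.95 and 10.30 in UCMS animals, and its slope was -0.39 ± 0.10 (SE, n = 16, limma adjusted p = 0.00984). The animal with most Mki67, UCMS replicate 7, had the least Hist1h1c, and over the 16 animals Pearson's r was -0.72 (permutation p = 0.0015, adjusted 0.0159) and Spearman's rho -0.66 (permutation p = 0.00687, adjusted 0.0562). Without the 2 animals farthest from the median of Mki67, r was -0.66 (permutation p = 0.00917, adjusted 0.0712). Hist1h1c is a linker histone gene that is also expressed in cells that do not divide.

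Hist1h4m, an H4 gene, was at 7.05, 7.59 and 7.93 in controls and 6.80, 7.06 and 7.27 in UCMS animals, with a slope of -0.43 ± 0.13 (limma adjusted p = 0.0330, r = -0.65, rho = -0.65). Hist1h4i was at 7.70, 8.11 and 8.44 and at 6.94, 7.69 and 7.95, with a slope of -0.47 ± 0.15 (limma adjusted p = 0.0331, r = -0.63, rho = -0.59). Hist1h4n was at 7.33, 7.83 and 8.22 and at 7.04, 7.40 and 7.65, with a slope of -0.42 ± 0.14 (limma adjusted p = 0.0406, r = -0.63, rho = -0.58). All 3 are H4 genes of the Hist1 cluster, and their control and UCMS ranges overlapped. The H2B gene Hist1h2be was at 6.94, 7.28 and 7.74 and at 6.46, 6.96 and 7.25, with a slope of -0.40 ± 0.13 (limma adjusted p = 0.0356, r = -0.66, rho = -0.49). Without the 2 farthest animals their r was -0.51, -0.37, -0.48 and -0.38, in the order named, so the relation of these 4 rests in part on those 2 animals.

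Hist3h2ba, an H2B gene, was the 1 member that rose with Mki67. It was at 2.59, 3.67 and 4.65 in controls and 3.76, 4.23 and 4.59 in UCMS animals, with a slope of 0.75 ± 0.22 (SE, n = 16, limma adjusted p = 0.0251). Its r was 0.64 (permutation p = 0.00774, adjusted 0.0466) and its rho 0.59 (permutation p = 0.0186, adjusted 0.103). Without the 2 farthest animals r was 0.53 (permutation p = 0.0491, adjusted 0.194). Hist1h1b, a linker histone of dividing cells, had a slope of nearly the same size, 0.74 ± 0.26, that did not pass (limma adjusted p = 0.0568). It was at 3.51, 5.14 and 5.79 in controls and 4.78, 5.46 and 6.02 in UCMS animals, and the 2 lowest values were controls.

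At the other end, 3 members had almost no slope: Hist1h2bn -0.01, Hist1h2af -0.02 and Hist4h4 -0.02. By family, positive slopes were found for 4 of 5 H1, 10 of 17 H2A, 6 of 18 H2B, 9 of 12 H3 and 1 of 13 H4 genes. Only H1, H2B and H4 had members past the threshold by limma. By transcript end, genes with 100 bases or more after the stem-loop had 7 positive and 14 negative slopes (median -0.14), those with fewer 12 and 10 (median 0.06), and those without an annotated stem-loop 11 and 11 (median 0.01). By the permutation test of r instead of limma, 5 of the 65 passed, where 17% of all genes did, and by that of rho 0 did, where 11.2% of all genes did.

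**Figure D3:**
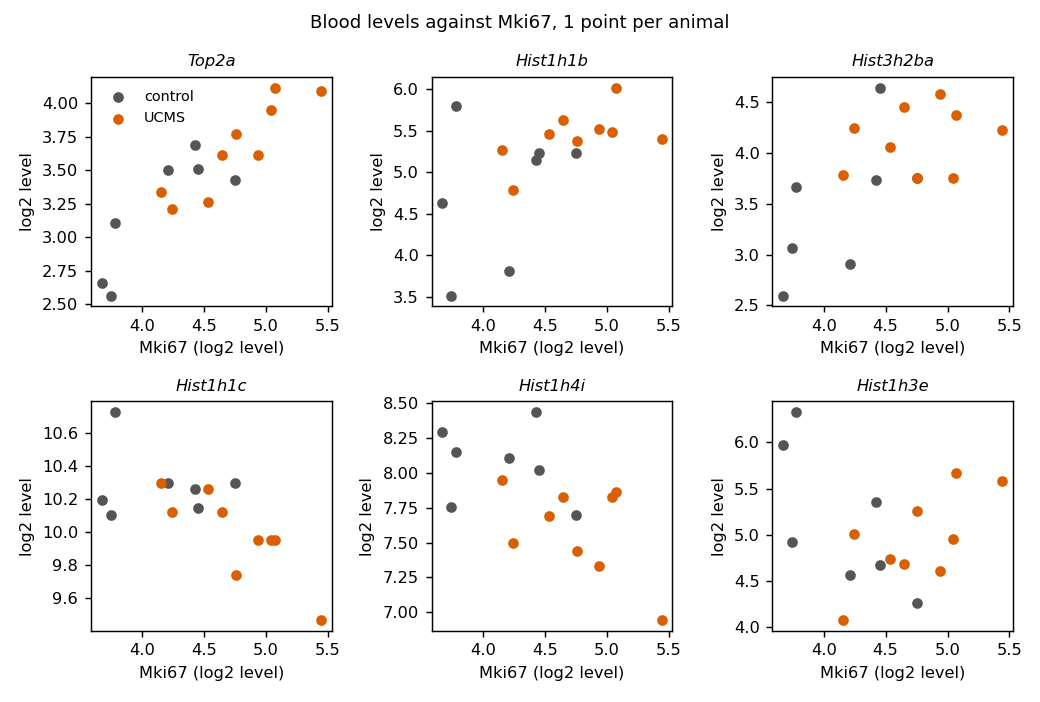
Log2 level of Top2a, Hist1h1b, Hist3h2ba, Hist1h1c, Hist1h4i and Hist1h3e (vertical axes) against the log2 level of Mki67 (horizontal axes) in 16 blood samples, controls and UCMS animals marked apart. Top2a, Hist1h1b and Hist3h2ba rise along the axis (slopes 0.78, 0.74 and 0.75), Hist1h1c and Hist1h4i fall (-0.39 and -0.47), and Hist1h3e has its 2 highest values in controls with little Mki67.

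Treatment and Mki67 moved together, so the relation was also taken with treatment in the model and within each group. With treatment as a covariate, 0 of the 65 members passed, where 7.51% of all genes did. Only Hist1h1c had an unadjusted p under 0.05, as 23.8% of all genes had (slope -0.33, limma adjusted p = 0.112). By limma within 1 group, 0 members passed in controls (0% of all genes) and 0 in UCMS animals (0.0126%). Within the 7 controls r was negative for 54 of the 65 members, and within the 9 UCMS animals it was positive for 41. A negative r in controls with a positive r in UCMS animals was found for 37 of the 65 (56.9%), against 16.9% of all genes. Members moved together, so this count is not one of separate observations. No member passed the exact permutation test in either group, where 0% of all genes passed in controls and 0.882% in UCMS animals. The r of Hist1h1c was -0.16 in controls (rho 0.23) and -0.83 in UCMS animals (rho -0.85), and that of Hist3h2ba 0.62 and 0.24.

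H3 genes showed the split most plainly. All 12 had a negative r in controls (median -0.38) and all 12 a positive r in UCMS animals (median 0.73). The median H3 gene shared 57.2% of its stretches of 50 bases with other members, so these 12 are not separate observations. Hist1h3e was at 4.26, 4.93 and 6.33 in controls and 4.08, 4.95 and 5.67 in UCMS animals, and its r was -0.72 in controls (exact permutation p = 0.0764) and 0.71 in UCMS animals (exact permutation p = 0.0326, adjusted 0.216). Its 2 highest values were from control replicates 2 and 3, which had Mki67 levels of 3.67 and 3.78. The test of the difference in slope between the groups passed for no gene of the table (0%). Its smallest adjusted p among members was 0.536, for Hist1h3e (difference 2.17 ± 0.55, limma unadjusted p = 0.000983), and 9 members had an unadjusted p under 0.05 (8.02% of all genes), of which 8 were H3 genes and the other was Hist1h4b. Leaving out control replicate 3 left 11 of the 12 H3 genes with a negative r in controls, with a median of -0.17, and left 33 of all 65 members negative there. The median of the H3 genes in controls was -0.18 without control replicate 1 and -0.63 without control replicate 7, where 61 of the 65 members were negative.

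The other histone genes gave a mixed picture against Mki67. Of 8 replacement histones 1 rose, H2afj (slope 0.43, limma adjusted p = 0.0249), and 1 fell, H3f3b, which codes for the same H3 protein as H3f3a (slope -0.45, limma adjusted p = 0.0187). H2afz had 0.20, H3f3a 0.20 and H2afx, the variant marked at DNA breaks, 0.03, and none of these passed. Of 11 histone chaperone genes 4 rose, among them Anp32e, which removes the variant H2A.Z from chromatin (slope 0.87), and Asf1b, a carrier of new H3 and H4 in dividing cells (slope 0.67, limma adjusted p = 0.0201). Of 15 genes of histone mRNA processing and decay none passed. Slbp had a slope of 0.70 (limma adjusted p = 0.0529), Npat, the activator of histone gene transcription, 0.16, Casp8ap2 -0.07, and the U7 particle proteins Lsm10 and Lsm11 -0.41 and 0.06. Of 11 small RNAs without a poly(A) tail none passed.

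Markers of other blood cells also moved with Mki67. Of 25 genes of red cell precursors 15 rose with it (median slope 0.55), and of 12 platelet genes 5 fell (median -0.51). Of 12 T cell genes 3 fell, and of 9 B cell genes 1. Their part in the histone slopes was not tested.

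Controls varied more than UCMS animals in blood. The SD over control libraries was larger than that over UCMS libraries for 61 of the 65 members, against 57.6% of all genes. The median SD of the members was 0.62 in controls and 0.29 in UCMS animals, and that of all genes 0.39 and 0.36. Control replicate 3 was the highest of the 16 libraries for 50 of the 65 members, where it was highest for 8.92% of all genes, and control replicate 7 was the lowest for 27, where it was lowest for 7.0%. Without control replicate 3 the count of members was 59 of 65, against 54.4% of all genes, and the median SD of the members in controls was 0.49. These spreads were not tested.

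The 2 libraries were both low in the mean of the division lists and differed in histone RNA. The replication and S phase list had a mean level of 3.05 in control replicate 3 and of 2.75 in control replicate 7, the 2 lowest of all 16. The mitosis list, at 3.04 and 3.02, was also lowest in these 2, and Mki67 was at 3.78 and 3.75. Control replicate 2 was close to them, with the S phase list at 3.05 and the lowest Mki67, 3.67. Not every gene of the lists was low in the 2 libraries. Pcna, of the S phase list, was at 4.08 in replicate 3 and 3.81 in replicate 7. Its lowest blood library was at 2.80 and its highest at 4.22. The median of the 12 H3 genes, however, was 7.52 in replicate 3, the highest of all, and 5.58 in replicate 7. The small RNAs without a poly(A) tail had a mean of 7.55 in replicate 3, the second highest, and 6.63 in replicate 7, the lowest. Mature neutrophil and monocyte genes were highest in replicate 7, at 5.53 and 3.94. Red cell precursor genes were lowest in both replicates 3 and 7, at 5.46 and 5.55, against 5.68 or more in the other libraries. Hbb-bs was also lowest in both, at 14.73 in each against 15.42 in each of the others. Such equal values arise where libraries are put on one distribution, so this gap is a step in rank and not a measured size. Whether these differences of the 2 libraries have a part in the histone levels was not tested.

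The main comparison of the study was UCMS against control. By limma, with adjustment over 14127, 14015, 14539 and 7947 genes, 0 genes passed in any of the 4 tissues, which is 0% of each table and 0 members. Before adjustment, p was under 0.05 for 0 of 66 members in prefrontal cortex (2.18% of all genes), 0 of 66 in hippocampus (2.95%), 2 of 66 in hypothalamus, both lower (2.12%, 1.17% lower), and 11 of 65 in blood (10.8%). Read against these shares, the count in hypothalamus was close to the background, that in blood above it and the others under it. Members share sequence and moved together, so such a count is not one of separate observations. The hypothalamus count was 6 without control replicate 2, 0 without control replicate 1, 3, 4 or 7 or UCMS replicate 2, 3 or 7, and 1 without control replicate 6 or UCMS replicate 1 or 5. The blood count was 9 to 15 with 1 library left out.

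In blood the 11 were 9 lower (4.33% of all genes were lower) and 2 higher (6.48%). Hist1h4m differed by -0.46 ± 0.14 (SE, 9 UCMS against 7 control, limma adjusted p = 0.401), Hist1h4i by -0.47 ± 0.15 (adjusted p = 0.409) and Hist1h4n by -0.43 ± 0.14 (adjusted p = 0.419), with the levels given above. In each of these 3 H4 genes 9 of 9 UCMS values were under the control median, although the ranges overlapped. The H2B gene Hist1h2br was at 6.20, 6.64 and 6.73 in controls and 5.55, 6.001 and 6.61 in UCMS animals, a difference of -0.47 ± 0.15 (limma adjusted p = 0.419), and its near copy Hist1h2bq gave -0.46 ± 0.15. Hist1h1c differed by -0.30 ± 0.12 (limma unadjusted p = 0.0152). The 2 higher genes were Hist3h2ba, by 0.66 ± 0.23 (limma unadjusted p = 0.0104, 9 of 9 UCMS values above the control median), and Hist1h1b, by 0.68 ± 0.27 (limma unadjusted p = 0.0190, 8 of 9). Several of these are the genes that passed against Mki67, and both comparisons rest on the same 16 libraries. Mki67 itself differed by 0.61 ± 0.20 (limma adjusted p = 0.419), and with Mki67 as a covariate, a setting chosen after the data were seen, 0 members had an unadjusted p under 0.05 (2.88% of all genes).

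Over all members in blood 31 of 65 were higher in UCMS animals, with a median difference of -0.03 against -0.01 over all genes. H2A genes were more often higher (12 of 17, median 0.15) and H4 genes lower (1 of 13 higher, median -0.10). The direction of the whole turned on 2 controls: 47 of 65 were higher without control replicate 3 (median 0.20) and 20 of 65 without control replicate 7 (median -0.14). The division lists were higher beside them, 17 of 18 mitosis genes (median 0.44) and 13 of 15 S phase genes (median 0.38), and so were 22 of 25 genes of red cell precursors (median 0.27). Platelet genes were lower in 12 of 12 (median -0.45), mature neutrophil genes in 8 of 8 (median -0.17), T cell genes in 11 of 12 (median -0.16) and monocyte genes in 5 of 6 (median -0.30). None of these genes passed after adjustment, and their part in the histone differences was not tested.

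**Figure D4:**
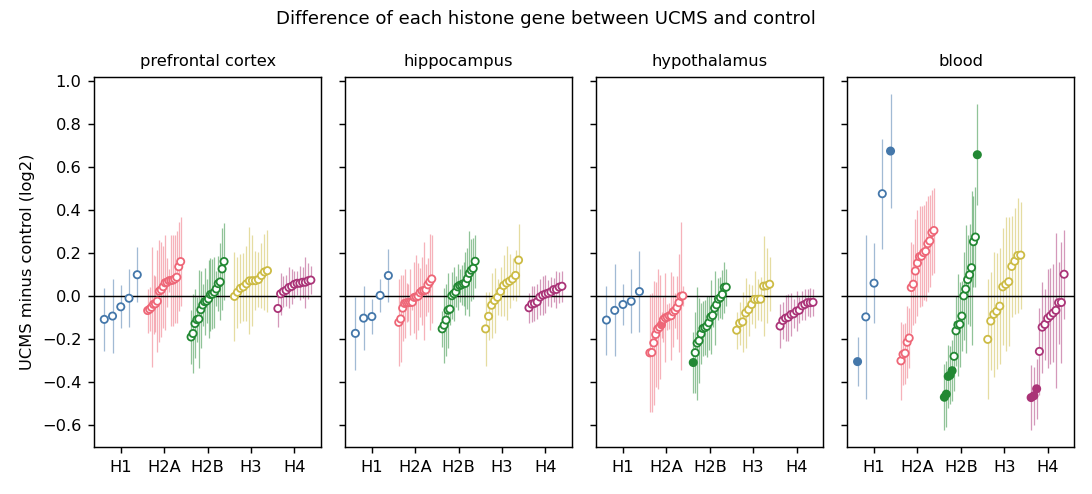
UCMS minus control difference in log2 level for each replication-type histone gene, with SE bars, by family in the 4 tissues; filled points have an unadjusted limma p under 0.05 and no gene passed after adjustment. The brain differences lie close to 0, with the hypothalamus mostly below it (8 of 66 higher), and blood has the widest spread, from -0.47 to 0.68.

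In hypothalamus the members leaned lower: 8 of 66 were higher in UCMS animals, with a median of -0.08 against 0.00 over all genes, and 0 of 13 H4 genes were higher. Hist1h2al, annotated as a processed pseudogene, was at 7.03, 7.32 and 7.43 in controls and 6.95, 7.17 and 7.30 in UCMS animals, a difference of -0.13 ± 0.06 (limma unadjusted p = 0.0453, adjusted 0.999988). All 8 UCMS values were under the control median. Hist1h2bf, an H2B gene, was at 4.51, 4.96 and 5.45 and at 4.33, 4.51 and 5.08, a difference of -0.31 ± 0.14 (limma unadjusted p = 0.0465), with 6 of 8 UCMS values under the control median. Hist1h3f, an H3 gene, was at 5.96, 6.21 and 6.40 and at 5.78, 6.06 and 6.28, a difference of -0.16 ± 0.09 (limma unadjusted p = 0.0816). Without the libraries rich in Hbb-bs, 11 of 66 were higher, with a median of -0.06, so the lean was also present without them. There 7 had an unadjusted limma p under 0.05 (2.3% of all genes). Members moved together, so none of these counts is one of separate observations.

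In hippocampus 38 of 66 members were higher (median 0.01 against 0.00 over all genes), and without the libraries rich in Hbb-bs 39 of 66 (median 0.02). The smallest p belonged to Hist2h2be, at 5.87, 6.07 and 6.20 in controls and 5.46, 5.97 and 6.11 in UCMS animals, a difference of -0.15 ± 0.08 (limma unadjusted p = 0.0832, adjusted 0.990). In prefrontal cortex 44 of 66 were higher (median 0.04 against 0.01), and without the libraries rich in Hbb-bs 29 of 66 (median -0.02). Hist2h2be again had the smallest p there, at 5.05, 5.80 and 5.88 and at 5.14, 5.44 and 5.84, a difference of -0.19 ± 0.13 (limma unadjusted p = 0.153, adjusted 0.987). The H4 gene Hist1h4a was at 8.19, 8.33 and 8.62 and at 8.35, 8.43 and 8.65, a difference of 0.08 ± 0.07. In all 3 regions every control range overlapped its UCMS range for the genes named. Slbp differed by -0.04, -0.04 and 0.07 in prefrontal cortex, hippocampus and hypothalamus and Npat by -0.01, -0.06 and -0.07, none with an unadjusted p under 0.05.

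The 9 brain libraries rich in Hbb-bs came from controls and UCMS animals, 4 in hypothalamus, 3 in hippocampus and 2 in prefrontal cortex, and were set beside the others as a description without a test. In hypothalamus 23 of 66 members were higher in all 4 such libraries than in any of the other 12, against 3.1% of all genes. In hippocampus there were 5 of 66 (2.73% of all genes) and in prefrontal cortex 2 of 66 (2.65%). No member was lower without overlap in any region, where 1.74, 1.99 and 1.01% of all genes were, in the same order. The median difference of the members was 0.36 in hypothalamus, 0.19 in hippocampus and 0.02 in prefrontal cortex, against -0.06, -0.04 and -0.03 over all genes.

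Hist1h1c and the H2B gene Hist1h2bc stood apart in all 3 regions. Hist1h1c was at 8.52 to 8.58 against 7.73 to 8.35 in prefrontal cortex, 8.43 to 8.67 against 7.68 to 8.08 in hippocampus, with 8.69 to 9.09 against 7.68 to 8.14 in hypothalamus. Hist1h2bc was higher by 0.87, 0.67 and 0.72. For both genes every blood library was above every brain library. Hist1h2bc was at 6.78 or more in blood, against at most 6.27, 6.40 and 6.65 in the 3 regions. In hypothalamus the H2A genes had the widest differences, with Hist1h2af at 4.41 to 4.99 against 2.72 to 4.19 and Hist1h2ap at 5.55 to 6.15 against 4.05 to 4.81. By family, no overlap was found there for 2 of 5 H1, 7 of 18 H2A, 9 of 18 H2B, 4 of 12 H3 and 1 of 13 H4 genes. Hist2h2be, Hist3h2a and Hist4h4 showed little difference in hypothalamus, at -0.03, -0.09 and -0.09.

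**Figure D5:**
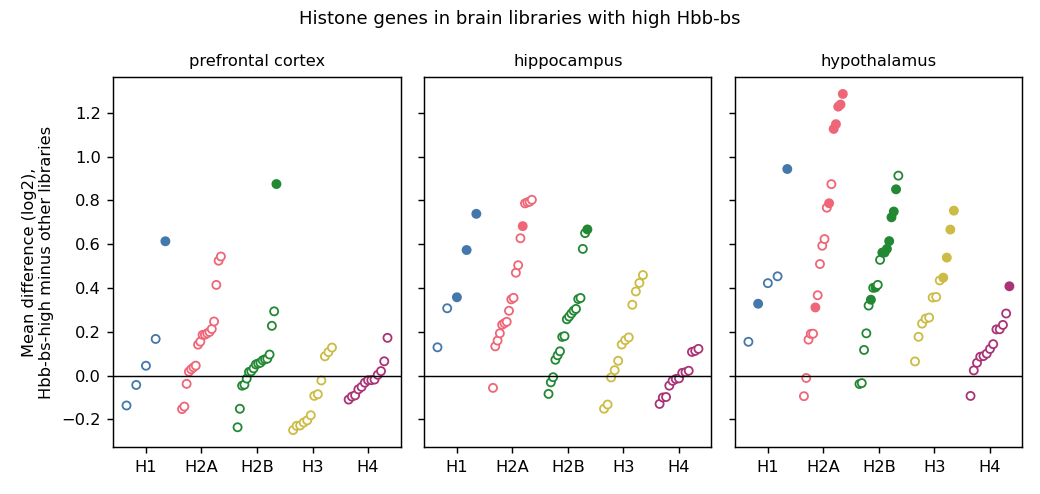
Mean log2 level in brain libraries with Hbb-bs above 12 minus the mean in the other libraries of the region, for each replication-type histone gene by family in the 3 brain regions; filled points do not overlap between the 2 sets of libraries. Hypothalamus has 23 filled points, hippocampus 5 and prefrontal cortex 2, all above 0.

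Other genes of the same libraries moved as well. Mki67 was at 6.87 to 7.01 against 2.84 to 6.003 in prefrontal cortex, 6.83 to 7.22 against 3.26 to 4.80 in hippocampus, with 4.56 to 5.31 against 1.04 to 1.71 in hypothalamus. Alas2, of red cells, was higher by 8.49, 8.53 and 8.22 in the same order. The replacement histone H3f3a was higher without overlap in all 3 regions, by 0.62, 0.52 and 0.77, while H1f0 was lower without overlap in hypothalamus, by a difference of -0.21. Slbp (0.26, 0.00 and -0.05) and Pcna, the sliding clamp of DNA replication (-0.03, -0.09 and -0.08), overlapped. How far blood RNA takes part in the histone levels of these libraries was not tested.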

How the data were processed

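RNA was sequenced from total RNA (100 ng) of male BALB/c mouse prefrontal cortex, hippocampus, hypothalamus and blood after ribosomal RNA depletion with directional libraries, per the labels' protocols. The deposited tables hold 1 value per gene and library. That the authors' values are on a log2 scale and were quantile normalized within each table is read from the values: 89.0, 89.4, 88.7 and 72.4% of ranked values were equal in all libraries of a table (tolerance 0.0025). The submitters' processing notes name GRCm38 p4. For the aligner, the counter, multiply matching reads and strand, nothing is stated among these sources, and depth is unknown.

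Columns were mapped to samples by their labels, and 0 columns were without a sample. Whether same-numbered samples are paired was checked: correlations of same-numbered libraries ran from -0.45 to 0.55, so numbers were not used as pairs. In each tissue the 10% of genes with the lowest mean were left out, and UCMS was compared with control by limma 3.58.1 in R 4.3.3 with an intensity trend, two-sided, with Benjamini-Hochberg adjustment over all genes. In blood a slope on Mki67 was fitted the same way. Pearson and Spearman correlations were tested with 100000 permutations over 16 animals and exactly within groups, two-sided. The permutations were run in numpy 2.4.6, with ranks from scipy 1.17.1 and Benjamini-Hochberg adjustment from statsmodels. Filtering left 66 histone members in each brain region, without Hist1h2ba, and 65 in blood, without Hist2h2ab. Nothing in the labels says that libraries of one animal were made more than once, so libraries of a tissue were treated as separate animals.

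The fits were tested on simulated data with known changes in genes drawn at random from all genes, each varied independently with its own SD. In prefrontal cortex, hippocampus, hypothalamus and blood, 61, 78, 77 and 11% of differences of 0.5 were recovered. For differences of 1 it was 92, 96, 94 and 60%. Of slopes on Mki67, 20% of those of 0.5 and 76% of those of 1 were recovered, so such slopes can be missed in blood. Leaving out each library, other filters, covariates and division genes were tried as alternatives.

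Named genes are, in blood, the members past the threshold against Mki67, the 3 with the largest p and the 5 with the smallest p for UCMS. In each brain region they are taken from the 5 with the smallest p. A fixed set of division, processing, chaperone and replacement histone genes is added; further names were chosen after their values were seen. The members and the gene lists were chosen with earlier results of these data known. Gene positions and stem-loops come from GENCODE on GRCm38 and promoters from RefSeq on GRCm38.p6. Protein sequences were not used here.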

Additional observations from a re-analysis of the deposited data

Results flagged for a closer look

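Of 66 sets of values (a named member or the median of all members, in 1 group of 1 tissue), 4 had a library that stood far from the rest of its group, judged by its gap to the nearest library over the range of the group. Chance alone gives about 1 in 20, so 4 of 66 is close to that share. The pseudogene Hist1h2al in hypothalamus was lowest in control replicate 5, at 7.025, with the next control at 7.242. The linker histone Hist1h1c in blood was highest in control replicate 3, at 10.727, with the next control at 10.295; that library is the one with the highest median over all members. The H4 gene Hist4h4 in blood was lowest in UCMS replicate 8, at 4.446, with the next UCMS library at 4.858. The median of all members in blood was highest among UCMS animals in replicate 5, at 6.608, with the next at 6.113.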

How the results depend on the processing

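For UCMS against control, 0 members passed after adjustment in every tissue under every alternative run, leaving out each library (0 to 0) and the replicate block (0 members) included. The count of 6 members that passed against Mki67 in blood moved with the samples: it was 0 with treatment as a covariate, 0 in controls only, 0 in UCMS animals only, 1 without the 2 animals farthest in Mki67, 1 without the BS animals and 4 without an intensity trend. It was 2 with Top2a in place of Mki67, both positive, 0 with Pcna, and 0 by Spearman's rho in place of Pearson's r. Leaving out 1 library gave 1 to 10. Without control replicate 7 the 10 were all negative, without control replicate 3 there were 4, of which 3 were positive, without UCMS replicate 5 there were 9, without UCMS replicate 8 there were 2, and without UCMS replicate 7 or control replicate 2 there was 1. The cause was not tested.

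The slopes nearest 0 changed sign. Hist4h4 was at 0.0365 without the BS animals, 0.12 on Top2a and 0.28 on Pcna, and -0.23 to 0.18 with 1 library left out. Hist1h2af was at 0.26 in UCMS animals only, 0.0700 without the 2 farthest animals, 0.17 on Top2a and 0.26 on Pcna, and -0.21 to 0.25 with 1 left out. Hist1h2bn was at 0.35, 0.0323, 0.19 and 0.0873 under the same settings, and -0.12 to 0.17 with 1 left out. Of the values of named members under other settings, 236 kept direction and side of the threshold, 41 fell short of it and 11 changed sign; with 1 library left out these were 427, 25 and 12. Without counts, depth sets no interval here.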
